A study of Mus musculus with 6 samples.

Results

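The chemokine ligand genes are the genes of the small secreted or membrane-bound proteins that direct the movement of leukocytes. Members were taken by symbol, as every gene of the count files whose mouse symbol is Cxcl, Ccl or Cx3cl followed by a number and at most 1 letter, and the rule used no measured value. It found 39 genes among the 27179 genes counted. Of these, 12 averaged 100 normalized counts or more over the 6 libraries, 5 averaged between 10 and 100, 11 had counts but a mean below 10, and 11 had no count in any library.

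RNA-seq was performed on 3 immortalized mouse embryonic fibroblast (MEF) lines of the C57BL/6 strain, grown without treatment to about the same density, with 2 libraries per line from independent RNA preparations. Cry/Per_KO cells carry cry1-/-, cry2-/-, per1-/- and per2-/-. In Cry/Per/Nr1d_KO cells nr1d1-/- and nr1d2-/- are added to these alleles, and Per/Nr1d_KO cells carry per1-/-, per2-/-, nr1d1-/- and nr1d2-/- with both Cry genes intact. All 3 lines therefore lack PER1 and PER2, and no wild-type cells were sequenced. The Cry/Per/Nr1d_KO line is 1 clone made from Cry/Per_KO cells with CRISPR/Cas9 and puromycin selection, whereas the Per/Nr1d_KO line was made separately, so that a genotype and the history of its line cannot be told apart. With 2 RNA preparations of 1 line in each group, the p-values measure only the spread between preparations.

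For the Cry/Per_KO and Cry/Per/Nr1d_KO libraries, the recorded genotype conflicts with the deposited name, each pair bearing the name of the other. The recorded genotypes were used, and these pairs are called the labelled Cry/Per_KO pair and the labelled Cry/Per/Nr1d_KO pair. If the names were right instead, every difference between these pairs would change its sign, and the differences of Per/Nr1d_KO from either pair would change places. The 6 targeted genes were transcribed in every library. In the labelled Cry/Per/Nr1d_KO pair Cry1 was at 1698 and 1724 normalized counts, Cry2 at 6908 and 6476, Per1 at 3066 and 3062, Per2 at 4866 and 4999, Nr1d1 at 3158 and 3146 and Nr1d2 at 4881 and 5506. In the labelled Cry/Per_KO pair Cry1 was at 5323 and 5478, Cry2 at 7783 and 7824, Per1 at 5644 and 5793, Per2 at 6633 and 6838, Nr1d1 at 9337 and 9249 and Nr1d2 at 8262 and 8008, so that all 6 stood above the labelled Cry/Per/Nr1d_KO pair. In Per/Nr1d_KO cells these genes were at 1004 (Per2) to 5717 (Nr1d2). Cry1 and Arntl (Bmal1) are known targets that NR1D proteins repress. Cry1 was higher in the labelled Cry/Per_KO pair by 1.66 ± 0.053 on the log2 scale (edgeR, adjusted p = 9.62e-13). Arntl, chosen here after its values were seen, was at 1191 and 1171 in the labelled Cry/Per/Nr1d_KO pair, 2176 and 2208 in the labelled Cry/Per_KO pair and 2493 and 2455 in Per/Nr1d_KO cells, and was higher in the labelled Cry/Per_KO pair by 0.89 ± 0.058 (edgeR, adjusted p = 2.42e-09). The log2 fold change of Arntl in Per/Nr1d_KO cells was 1.07 ± 0.058 against the labelled Cry/Per/Nr1d_KO pair (edgeR, adjusted p = 1.56e-10) and 0.17 ± 0.056 against the labelled Cry/Per_KO pair (adjusted p = 0.00944). Cry1 and Arntl were thus lower in the pair recorded as lacking NR1D, which goes against the recorded genotypes of these pairs, and each direction between them, or between Per/Nr1d_KO and 1 of them, is given with this limit. Library totals ran from 53764390 to 85927236 counts. The fibroblast markers Col1a1, Col1a2, Fn1 and Vim were abundant in every library (at least 83457 normalized counts), but Thy1 had at most 6.21 and Lum at most 9.77, so that these markers of fibroblasts were close to absent.

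Chemokines are named by the spacing of their first conserved cysteines (CXC, CC or CX3C), and they act on G-protein-coupled receptors of leukocytes. Inflammatory chemokines are induced in fibroblasts and other stromal cells by NF-kB or interferon signalling and recruit neutrophils, monocytes or T cells, whereas homeostatic chemokines such as CXCL12 are made constantly and hold cells in their niches. Many inflammatory chemokine genes lie in tandem clusters that arose by duplication, 1 large group of CXC genes on mouse chromosome 5 and another of CC genes on chromosome 11.

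The proximal promoters of 5 members that differed between the lines and of Cxcl12, the member with the highest mean count, are shown because NF-kB and interferon-activated factors are the known regulators of inflammatory chemokines. The sequences are from RefSeq (GRCm38.p6), run 5′ to 3′ on the strand of the gene, and end at the base before the transcription start. Capitals mark a match on either strand to the NF-kB consensus (the κB motif), and in Cxcl10 also the match to the interferon-stimulated response element (ISRE), searched as GAAANNGAAA. The 5 members all hold a κB match, so that this display does not show how often members that differed hold one. The windows are chr5:90891125-90891244 (plus strand) for Cxcl1, chr5:90903779-90903898 (plus) for Cxcl2, chr5:90785981-90786100 (plus) for Cxcl3, chr1:83116646-83116765 (plus) for Ccl20, chr5:92348890-92349139 (minus) for Cxcl10 and chr6:117168415-117168534 (plus) for Cxcl12.
Cxcl1: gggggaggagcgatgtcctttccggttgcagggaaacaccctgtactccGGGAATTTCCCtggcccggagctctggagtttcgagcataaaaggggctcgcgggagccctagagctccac
Cxcl2: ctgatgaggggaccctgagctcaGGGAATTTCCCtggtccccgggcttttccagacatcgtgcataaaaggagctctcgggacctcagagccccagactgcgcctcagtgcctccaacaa
Cxcl3: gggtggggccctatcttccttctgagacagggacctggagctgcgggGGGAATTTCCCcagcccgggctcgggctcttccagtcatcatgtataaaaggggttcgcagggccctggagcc
Ccl20: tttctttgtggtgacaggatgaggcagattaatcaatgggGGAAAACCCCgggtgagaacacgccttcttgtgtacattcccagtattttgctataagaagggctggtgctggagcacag
Cxcl10: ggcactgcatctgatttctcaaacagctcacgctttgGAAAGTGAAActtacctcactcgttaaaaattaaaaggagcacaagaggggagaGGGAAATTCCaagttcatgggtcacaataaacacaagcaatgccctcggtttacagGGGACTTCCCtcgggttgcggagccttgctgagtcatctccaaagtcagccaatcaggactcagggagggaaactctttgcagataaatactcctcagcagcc
Cxcl12: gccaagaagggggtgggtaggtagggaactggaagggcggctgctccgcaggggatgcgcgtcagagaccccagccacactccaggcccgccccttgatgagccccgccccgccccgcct

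Cxcl1, Cxcl2 and Cxcl3, neighbours on chromosome 5, held the same run of 11 bases, from 71, 97 and 73 bases before the start, which the motif matched on both strands with 1 base of offset. Cxcl10 held 2 separate κB matches, at 159 to 150 and 103 to 94 bases before the start, and an ISRE match at 213 to 204. The match of Ccl20 lay on the opposite strand 80 to 71 bases before the start. RefSeq windows of 250 bases were available for 27 members. In these the κB motif was found in 6 of the 11 genes with a mean of at least 10 counts (Ccl20, Ccl9, Cxcl1, Cxcl10, Cxcl2 and Cxcl3) and in 0 of the 16 with a lower mean. Ccl25, Ccl27a and Ccl28, which differed beyond the limit used below in at least 1 comparison, held no match. Neither did Cxcl12 and Cx3cl1. The other members with a mean of at least 10 (Cxcl5, Ccl2, Ccl7, Ccl5, Cxcl16 and Cxcl17) had no window and were not searched. Ccl20, Cxcl2 and Cxcl3 were below 10 in the labelled Cry/Per/Nr1d_KO pair and reached this mean through the other pairs. Among all 32851 mouse promoters of that length, 3.9% held the κB motif, counted per promoter and not per gene. The ISRE was found in Cxcl10, Ccl19 and Cxcl14 and in 2.98% of all promoters, and the E-box CACGTG, the site of CLOCK-BMAL1, in Cxcl3 alone and in 6.02% of all promoters, with both strands searched in each case. A match is a description of the sequence, and no match says only that these letters are not in the window.

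**Figure D1:**
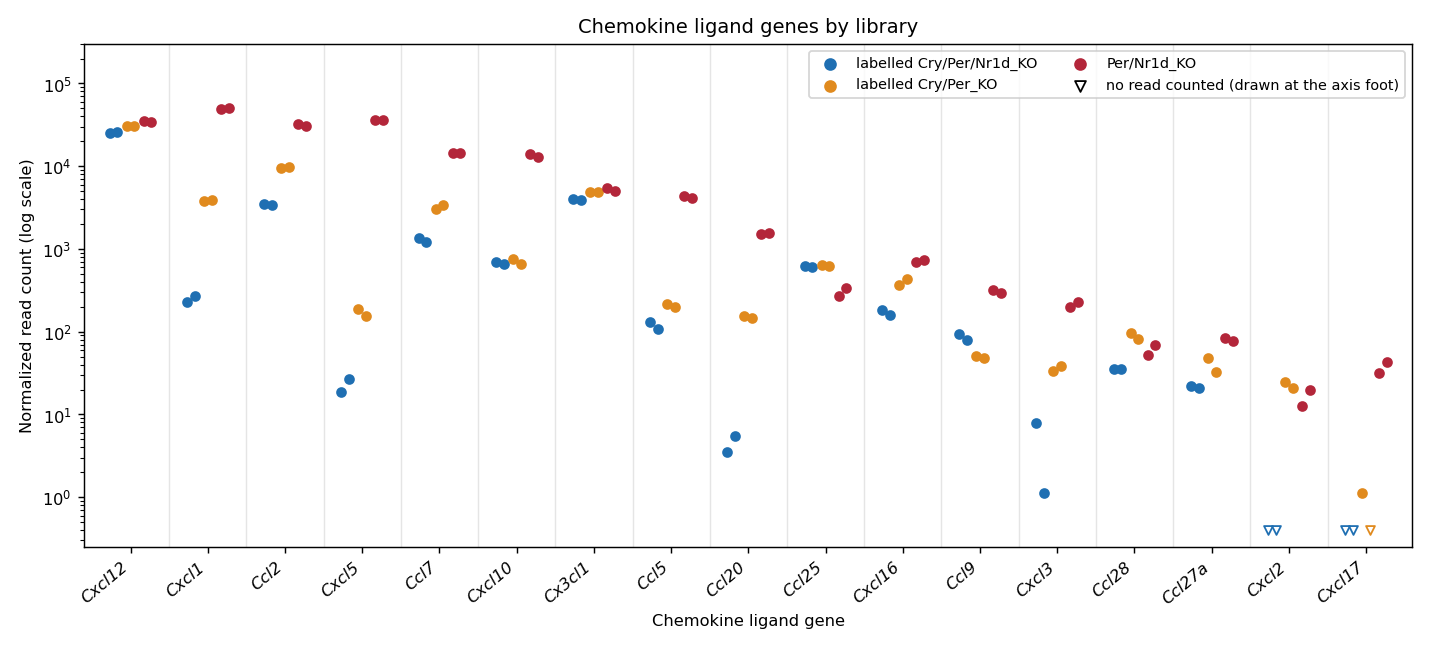
Normalized read counts (log scale) of the 17 chemokine ligand genes with a mean of at least 10 counts, 1 point per library, coloured by pair and ordered by their mean, with libraries without a read drawn as open triangles at the foot of the axis. For Cxcl1 the pairs run from 232 to 272, from 3761 to 3942 and from 49147 to 50611, whereas those of Cxcl12 lie between 25116 and 35154 in all 6 libraries.

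Summed over the members, chemokine transcripts took 0.0544% and 0.0545% of all counts in the labelled Cry/Per/Nr1d_KO libraries, 0.0859% and 0.0872% in the labelled Cry/Per_KO libraries, and 0.285% and 0.283% in Per/Nr1d_KO libraries. The 3 pairs did not overlap, and within each pair the libraries were close. In bulk RNA, fewer cells that express a gene and less RNA per cell cannot be told apart.

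A gene was called higher or lower where edgeR's quasi-likelihood test gave a Benjamini-Hochberg adjusted p under 0.05 and the level changed by more than 75%, which is 0.81 on the log2 scale. Between the labelled Cry/Per_KO and the labelled Cry/Per/Nr1d_KO pairs, which as labelled compares cells with and without NR1D where CRY and PER are absent, 6 of the 12 members with a mean of at least 100 were called higher and 1 was called lower. Of all 11934 genes tested, 16.8% were called there, 7.86% higher and 8.95% lower. Between Per/Nr1d_KO and the labelled Cry/Per/Nr1d_KO pair, which as labelled asks what CRY does where PER and NR1D are absent, 9 members were called higher and 1 lower, against 20.7% of all genes called, 11.3% higher and 9.35% lower. Between Per/Nr1d_KO and the labelled Cry/Per_KO pair, 9 were called higher and 1 lower, against 29.0% of all genes, 15.2% higher and 13.8% lower. The median log2 fold change of the 12 members was 0.998, 3.34 and 2.39 in the 3 comparisons, and that of all genes tested was within 0.035 of 0. The comparisons share libraries and are not independent of each other. Ccl20, Cxcl5 and Ccl9 were below a mean of 100 in at least 1 pair and entered through the level in Per/Nr1d_KO, so that for these genes a difference was built into the filter, and the counts describe the members that passed and not all 39.

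A second fit of the 14770 genes with a mean of at least 10 also covered Cxcl3, Cxcl2, Cxcl17, Ccl27a and Ccl28. Of the 17 members in it, 10 were called higher and 1 lower between the labelled Cry/Per_KO and labelled Cry/Per/Nr1d_KO pairs, where 22.4% of all genes were called. The counts were 13 and 1 for Per/Nr1d_KO against the labelled Cry/Per/Nr1d_KO pair (26.5% of all genes) and 12 and 1 against the labelled Cry/Per_KO pair (33.8%). Here Ccl20, Cxcl3, Cxcl2 and Cxcl17 were below a mean of 10 in at least 1 pair and entered through the others, so that a difference was built in for these genes as well. With DESeq2 at an adjusted p under 1e-22 and the same limit on the fold, 5, 8 and 8 of the 12 members were called in the 3 comparisons, against 9.63%, 15.1% and 21.7% of all genes, and 5, 9 and 8 of the 17 members, against 7.86%, 12.3% and 17.6%. Of the 12, Cxcl16 and Ccl9 lost their calls in the first comparison. Ccl25 lost its call in both others, with Ccl9 in the second and Cxcl16 in the third.

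**Figure D2:**
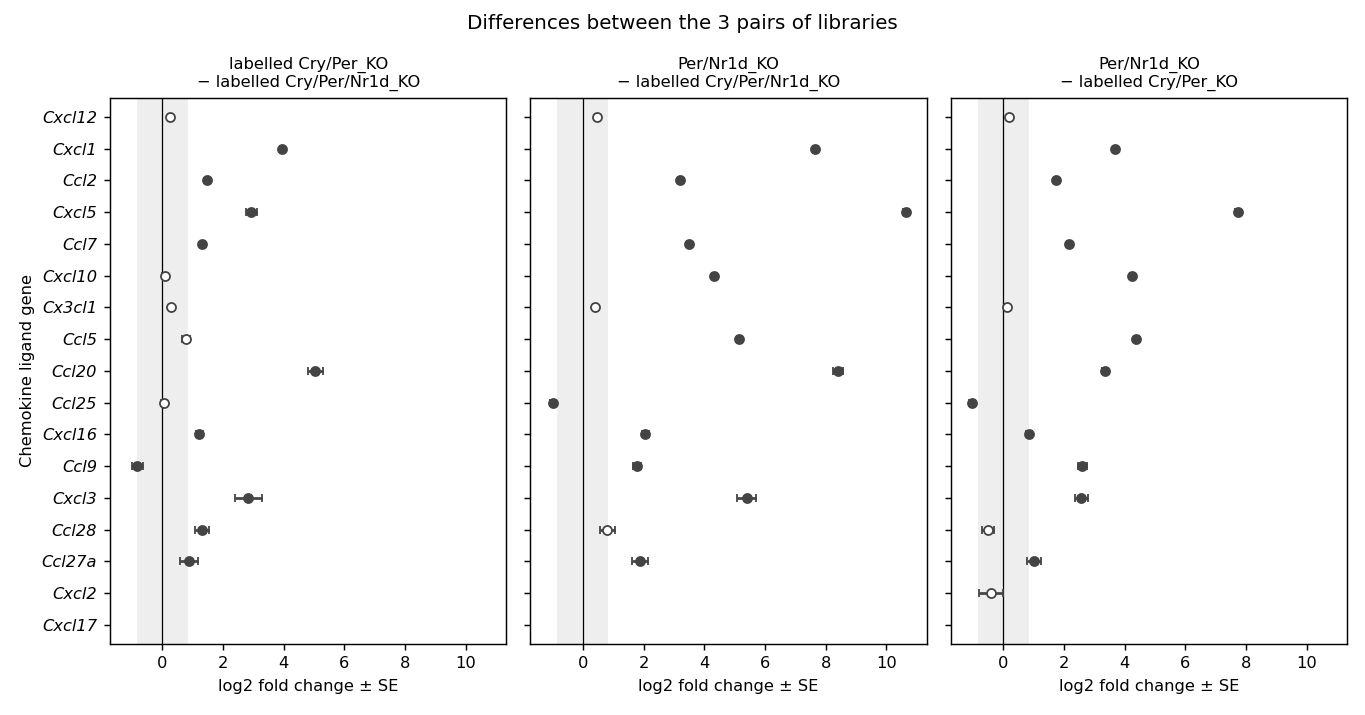
Log2 fold change ± SE from the edgeR fit of the 17 chemokine ligand genes in the 3 comparisons, 1 panel each. Filled points are called, open points are not, the grey band is the range within the limit of 0.81 on the log2 scale, and values resting on a pair with at most 1 read are left out, which leaves the row of Cxcl17 empty. Cxcl5 lies farthest to the right in the middle panel, at 10.65, and Ccl25 is the called gene to the left of the band in the panels of Per/Nr1d_KO.

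The neutrophil-attracting CXC genes encode ligands of CXCR2, and among them was Cxcl5, the member with the largest differences in the comparisons of Per/Nr1d_KO. This gene (chr5:90759298-90761625, GRCm38.p6) had 18.6 and 26.7 normalized counts in the labelled Cry/Per/Nr1d_KO libraries, 189 and 153 in the labelled Cry/Per_KO libraries, and 35921 and 35750 in Per/Nr1d_KO libraries. The 3 pairs were widely separated. The log2 fold change was 10.65 ± 0.097 (SE, n = 2 against 2, edgeR, adjusted p = 3.41e-19) between Per/Nr1d_KO and the labelled Cry/Per/Nr1d_KO pair, a ratio of 1582. It was 7.72 ± 0.076 (edgeR, adjusted p = 4.62e-19) against the labelled Cry/Per_KO pair and 2.93 ± 0.18 (edgeR, adjusted p = 1.55e-09) between the other two.

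Cxcl1 (chr5:90891245-90893121), the mouse KC chemokine, had 232 and 272 normalized counts in the labelled Cry/Per/Nr1d_KO pair, 3761 and 3942 in the labelled Cry/Per_KO pair and 49147 and 50611 in Per/Nr1d_KO cells. Each step was many times the spread within a pair. Per/Nr1d_KO was higher than the labelled Cry/Per/Nr1d_KO pair by 7.64 ± 0.070 on the log2 scale (198-fold, edgeR, adjusted p = 3.41e-19) and higher than the labelled Cry/Per_KO pair by 3.69 ± 0.053 (edgeR, adjusted p = 1.45e-17). The labelled Cry/Per_KO pair was higher than the labelled Cry/Per/Nr1d_KO pair by 3.94 ± 0.069 (15.3-fold, edgeR, adjusted p = 1.61e-15).

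Cxcl3, a close relative of Cxcl1 at chr5:90786101-90788093, was scarcer. It had 7.99 and 1.11 normalized counts in the labelled Cry/Per/Nr1d_KO pair, 33.4 and 38.3 in the labelled Cry/Per_KO pair and 196 and 226 in Per/Nr1d_KO cells. The order of the pairs was that of Cxcl1, with log2 fold changes of 5.40 ± 0.31 (edgeR, adjusted p = 1.09e-11), 2.56 ± 0.21 (adjusted p = 1.77e-09) and 2.84 ± 0.45 (adjusted p = 1.9e-05) in the order given for Cxcl5. The 2 labelled Cry/Per/Nr1d_KO libraries differed, and leaving out the first or the second of them gave 7.43 or 4.72 for Per/Nr1d_KO against this pair and 4.87 or 2.15 for the labelled Cry/Per_KO pair against it.

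Cxcl2 (MIP-2) did not follow this order. No read was counted in the labelled Cry/Per/Nr1d_KO pair, and normalized counts were 24.5 and 20.6 in the labelled Cry/Per_KO pair and 12.7 and 19.7 in Per/Nr1d_KO cells. Against a limit of 3 counts per library for the pair without reads, Cxcl2 was at least 7.52-fold higher in the labelled Cry/Per_KO pair (edgeR, adjusted p = 5.9e-06) and at least 5.404-fold higher in Per/Nr1d_KO cells (adjusted p = 2.26e-05). The latter pairs lay side by side without overlapping, and their difference of -0.41 ± 0.38 on the log2 scale was not called (adjusted p = 0.339). Of the 50-base stretches of Cxcl2, 5.84% also occur in Cxcl3, so that reads there cannot be assigned to either gene. Cxcl15, a neutrophil attractant known from lung, had at most 2.66 normalized counts in the labelled pairs and 13.9 and 10.3 in Per/Nr1d_KO cells, below the filter.

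Next to these genes, between Cxcl5 and Cxcl3 in the RefSeq order, lies Ppbp, a CXCR2 ligand (CXCL7) known from platelets, which the naming rule leaves out. It had 165 and 149 normalized counts in the labelled Cry/Per/Nr1d_KO pair, 23.4 and 18.7 in the labelled Cry/Per_KO pair and 24090 and 23818 in Per/Nr1d_KO cells. Its log2 fold changes were 7.25 ± 0.067 and 10.16 ± 0.088 for Per/Nr1d_KO against these pairs and -2.91 ± 0.17 between them (edgeR, adjusted p = 6.05e-10), so that the labelled Cry/Per_KO pair was lower for Ppbp and higher for Cxcl5 and Cxcl1. Like Cxcl5, Ppbp was below a mean of 100 in 1 pair. Pf4 of the same cluster had at most 10.1 normalized counts.

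The monocyte-attracting CC genes Ccl2 (MCP-1) and Ccl7 (MCP-3), ligands of CCR2, were abundant in all lines and differed in the same order. Ccl2 (chr11:82035577-82037452) had 3488 and 3432 normalized counts in the labelled Cry/Per/Nr1d_KO pair, 9461 and 9844 in the labelled Cry/Per_KO pair and 32728 and 30891 in Per/Nr1d_KO cells. Per/Nr1d_KO was 9.19-fold above the labelled Cry/Per/Nr1d_KO pair (log2 fold change 3.20 ± 0.049, edgeR, adjusted p = 3.43e-17) and 3.30-fold above the labelled Cry/Per_KO pair (1.72 ± 0.045, adjusted p = 1.76e-14), and the labelled Cry/Per_KO pair was 2.79-fold above the other (1.48 ± 0.047, adjusted p = 1.03e-12).

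For Ccl7 the normalized counts were 1350 and 1229, then 3054 and 3403, then 14360 and 14605, with the pairs as for Ccl2. No pair overlapped another. The log2 fold changes were 3.49 ± 0.063, 2.16 ± 0.058 and 1.32 ± 0.063 (edgeR, adjusted p at most 6.79e-11). The other CCR2 ligands of this cluster were scarce: Ccl12 (MCP-5) had no read, and Ccl8 (MCP-2) had 10.7 and 14.4 normalized counts in the labelled Cry/Per/Nr1d_KO pair, 6.68 and 8.84 in the labelled Cry/Per_KO pair and 0 and 1.58 in Per/Nr1d_KO cells, without a test. Ccl11 (eotaxin) had at most 5.33, and Ccl1 had no read.

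Cxcl10 (IP-10), the interferon-inducible ligand of CXCR3, separated Per/Nr1d_KO cells from both other pairs. Normalized counts were 692 and 656 in the labelled Cry/Per/Nr1d_KO pair, 765 and 661 in the labelled Cry/Per_KO pair, and 13958 and 12993 in Per/Nr1d_KO cells. The first 2 pairs overlapped (log2 fold change 0.07 ± 0.078, edgeR, adjusted p = 0.394). Per/Nr1d_KO was 19.99-fold above the labelled Cry/Per/Nr1d_KO pair (4.32 ± 0.069, adjusted p = 5.01e-17) and 18.9-fold above the labelled Cry/Per_KO pair (4.24 ± 0.069, adjusted p = 5.64e-17). Its neighbours Cxcl9 and Cxcl11, the other CXCR3 ligands, had at most 5.55 normalized counts in the labelled pairs and between 7.60 and 17.7 in Per/Nr1d_KO cells. Cxcl11 is a transcribed pseudogene in this RefSeq annotation. Art3, on the opposite strand, covers 5.91% of the exon bases of Cxcl10, and whether the counting used strand is not stated.

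Ccl5 (RANTES), a T cell and monocyte attractant on chromosome 11, had 130 and 107 normalized counts in the labelled Cry/Per/Nr1d_KO pair, 214 and 196 in the labelled Cry/Per_KO pair and 4393 and 4146 in Per/Nr1d_KO cells. The last pair lay far above both others, with log2 fold changes of 5.16 ± 0.091 (36.1-fold, edgeR, adjusted p = 1.82e-16) and 4.38 ± 0.085 (20.8-fold, adjusted p = 4.5e-16). The labelled Cry/Per_KO pair was higher than the labelled Cry/Per/Nr1d_KO pair by 0.78 ± 0.12 (adjusted p = 4.04e-05), just inside the limit on the fold. Leaving out the first labelled Cry/Per/Nr1d_KO library or the second labelled Cry/Per_KO library gave 0.94 or 0.84, which is past it.

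Ccl9 (MIP-1 gamma), a CCR1 ligand beside Ccl5, had 95.0 and 80.0 normalized counts in the labelled Cry/Per/Nr1d_KO pair, 51.2 and 48.1 in the labelled Cry/Per_KO pair and 318 and 290 in Per/Nr1d_KO cells. It was the single member called lower in the labelled Cry/Per_KO pair (-0.83 ± 0.19, edgeR, adjusted p = 0.00101). That call was lost without the first labelled Cry/Per/Nr1d_KO library (-0.69) or the second labelled Cry/Per_KO library (-0.78), and against the fold limit itself (edgeR's glmTreat, adjusted p = 1). Per/Nr1d_KO was higher than both, by 1.78 ± 0.14 (adjusted p = 1.05e-08) and 2.61 ± 0.15 (adjusted p = 3.06e-10). Of the others in this cluster, Ccl4 (MIP-1 beta) was counted in Per/Nr1d_KO alone, at 20.3 and 7.89 normalized counts. Ccl3 had at most 3.80 and Ccl6 at most 8.88.

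Ccl20, the CCR6 ligand that attracts dendritic and Th17 cells (chr1:83116766-83119167), had 3.55 and 5.55 normalized counts in the labelled Cry/Per/Nr1d_KO pair, 156 and 145 in the labelled Cry/Per_KO pair and 1517 and 1554 in Per/Nr1d_KO cells. The lowest pair rests on 4 and 5 reads. The ratios were 337 for Per/Nr1d_KO against this pair (log2 fold change 8.39 ± 0.17, edgeR, adjusted p = 7.25e-16), 33.1 for the labelled Cry/Per_KO pair against it (5.04 ± 0.25, adjusted p = 1.4e-10), and 10.2 between Per/Nr1d_KO and the labelled Cry/Per_KO pair (3.35 ± 0.094, adjusted p = 3.7e-14).

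Among the transmembrane chemokines, Cxcl16 and Cx3cl1 differed in their behaviour. For Cxcl16, a scavenger receptor and CXCR6 ligand, normalized counts were 184 and 160 in the labelled Cry/Per/Nr1d_KO pair, 370 and 432 in the labelled Cry/Per_KO pair and 700 and 732 in Per/Nr1d_KO cells. Per/Nr1d_KO was higher than the first by 2.05 ± 0.11 (edgeR, adjusted p = 1.34e-10), and the second was higher than the first by 1.217 ± 0.12 (adjusted p = 1.97e-07). The 0.84 ± 0.099 by which Per/Nr1d_KO exceeded the labelled Cry/Per_KO pair (adjusted p = 1.23e-06) was barely past the limit and fell inside it without the first labelled Cry/Per_KO library (0.73) or the second Per/Nr1d_KO library (0.80), and it was not called against the limit itself (edgeR's glmTreat, adjusted p = 0.618). Zmynd15, on the opposite strand, covers 18.3% of the exon bases of Cxcl16. Cx3cl1 (fractalkine) had 4049 and 3942, 4847 and 4940, and 5498 and 5038 normalized counts, and its differences of 0.29 ± 0.052, 0.40 ± 0.052 and 0.10 ± 0.051 were inside the limit on the fold in every comparison, with adjusted p of 0.000111, 4.72e-06 and 0.0717 (edgeR).

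Cxcl12 (SDF-1), the homeostatic chemokine of stromal cells (chr6:117168535-117181368), had 25116 and 25757 normalized counts in the labelled Cry/Per/Nr1d_KO pair, 30211 and 30925 in the labelled Cry/Per_KO pair and 35154 and 34339 in Per/Nr1d_KO cells. The pairs did not overlap and stood in the same order as for Ccl2, but the log2 fold changes of 0.45 ± 0.042 (edgeR, adjusted p = 9.96e-08), 0.18 ± 0.041 (adjusted p = 0.000749) and 0.27 ± 0.042 (adjusted p = 3.44e-05) were all inside the limit. The last value, between the labelled pairs, stands beside a median of 0.35 over the 559 genes tested on chromosome 6. For Per/Nr1d_KO the medians of these genes were -0.09 against the labelled Cry/Per/Nr1d_KO pair and -0.41 against the labelled Cry/Per_KO pair, opposite in sign to Cxcl12.

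Ccl25 (TECK), the CCR9 ligand known from thymus and gut, went the other way. It had 617 and 600 normalized counts in the labelled Cry/Per/Nr1d_KO pair, 633 and 624 in the labelled Cry/Per_KO pair and 270 and 335 in Per/Nr1d_KO cells. The labelled pairs were close to each other (0.05 ± 0.095, edgeR, adjusted p = 0.673), and Per/Nr1d_KO was lower than them by -0.99 ± 0.10 (adjusted p = 3.72e-07) and -1.03 ± 0.10 (adjusted p = 1.61e-07). Tested against the fold limit itself, the first of these was not called (edgeR's glmTreat, adjusted p = 0.0798). With DESeq2 both missed the limit of an adjusted p under 1e-22 (3.3e-13 and 1.84e-14).

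The mucosal and skin chemokines Ccl27a and Ccl28, which share the receptor CCR10, were scarce. Normalized counts of Ccl27a were 22.2 and 21.1 in the labelled Cry/Per/Nr1d_KO pair, 47.9 and 32.4 in the labelled Cry/Per_KO pair and 84.9 and 77.3 in Per/Nr1d_KO cells, with log2 fold changes of 1.89 ± 0.26 (edgeR, adjusted p = 2.71e-06) and 1.02 ± 0.23 (adjusted p = 0.000598) for Per/Nr1d_KO and 0.87 ± 0.30 (adjusted p = 0.0145) between the labelled pairs. The last call was lost by DESeq2 (adjusted p = 0.0605) and without the first labelled Cry/Per_KO library (0.58), and that of 1.02 without the second (0.75). Against the limit itself neither was called (edgeR's glmTreat, adjusted p = 0.869 and 0.229). Since 45% of the 50-base stretches of Ccl27a occur in other genes, among them Ccl27b, its counts are uncertain. Ccl28 was highest in the labelled Cry/Per_KO pair, with 35.5 and 35.5, 95.7 and 80.5, and 52.0 and 69.4 normalized counts. It was called higher there than in the labelled Cry/Per/Nr1d_KO pair (1.30 ± 0.23, edgeR, adjusted p = 4.58e-05), beside a median of 0.35 over the 449 genes of chromosome 13. Its differences of 0.81 ± 0.24 (adjusted p = 0.00535) and -0.49 ± 0.20 (adjusted p = 0.0326) for Per/Nr1d_KO were inside the limit, the former becoming 0.96 and a call without the first Per/Nr1d_KO library.

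Cxcl17, a chemokine of mucosal epithelia, had no read in the labelled Cry/Per/Nr1d_KO pair, 1 read in 1 labelled Cry/Per_KO library, and 31.7 and 42.6 normalized counts in Per/Nr1d_KO cells. It passed the filter through Per/Nr1d_KO alone, where it was at least 12.4-fold above a limit of 3 counts per library for the labelled Cry/Per/Nr1d_KO pair, so that its call was built in. Among the members below a mean of 10, Cxcl14 was counted in the labelled Cry/Per/Nr1d_KO pair alone, at 12.4 and 7.77 normalized counts. Ccl17 had between 2.23 and 14.2 in all libraries, and Ccl22 1 read in 1 library. No read was counted for Ccl1, Ccl12, Ccl19, Ccl21a, Ccl21b, Ccl21c, Ccl21d, Ccl24, Ccl26, Ccl27b or Cxcl13, among them the lymphoid chemokines that act on CCR7 and CXCR5. Of the 50-base stretches, 100% of Ccl21b, 98.1% of Ccl27b, 71.6% of Ccl21a and 52.0% of Ccl19 also occur in other genes, so that for these a count of 0 limits the level less than for other genes or, for Ccl21b, not at all. Ccl21c and Ccl21d were not assessed for this. For the other genes, in a library without a read, the true level may be up to 3 counts, or 2.37 to 3.80 normalized counts, a limit that covers counting error only.

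Per kb of exon, the make-up of the chemokine pool differed between the lines. Lengths were merged over all annotated transcripts of a gene (8.176 kb for Cxcl12 and 1.138 kb for Ccl2), so that levels of different genes can be compared only roughly. In the labelled Cry/Per/Nr1d_KO libraries Cxcl12 made up 31.7% and 33.1% of the summed chemokine level per kb, Ccl2 31.6% and 31.7%, Ccl7 17.4% and 16.1%, and Cxcl1 1.27% and 1.53%. In the labelled Cry/Per_KO libraries Ccl2 was at 41.3% and 41.1%, and Ccl7 at 18.9% and 20.2%. Cxcl12 was at 18.3% and 18.0% in these libraries, and Cxcl1 at 9.96% and 9.99%. In Per/Nr1d_KO libraries Ccl2 and Cxcl1 stood side by side at 26.1% and 24.9% and at 23.8% and 24.8%. Cxcl5 was at 17.5% and 17.6% there and at most 0.504% in the other libraries, and Cxcl12 was at 3.90% and 3.86%. Ccl7 was at 16.3% and 16.8% in Per/Nr1d_KO libraries. Ppbp, which the naming rule leaves out of the pool, had a level per kb equal to 20.2% of the summed level in each Per/Nr1d_KO library. The libraries of a pair differed by under 2 percentage points for each of these genes.

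**Figure D3:**
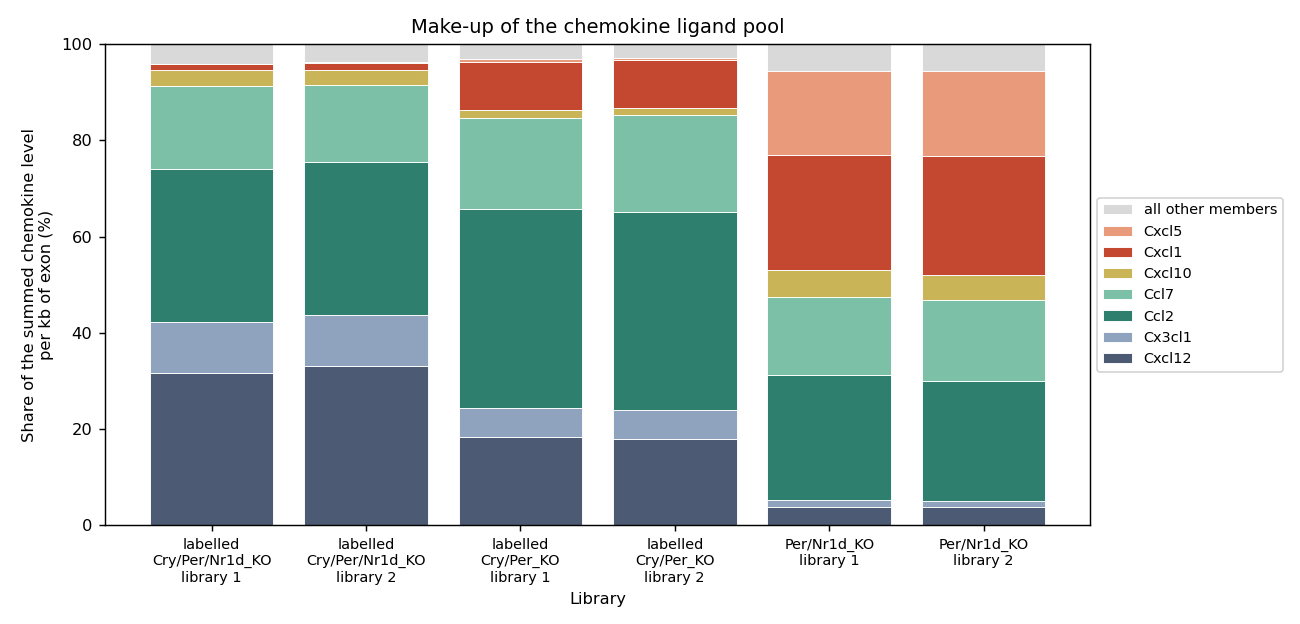
Share of the summed chemokine level per kb of exon (%) taken by 7 members and by all others together, 1 bar per library. Cxcl12 takes 31.7% and 33.1% of the bar in the labelled Cry/Per/Nr1d_KO libraries and 3.90% and 3.86% in Per/Nr1d_KO libraries, where Cxcl1 and Cxcl5 fill the upper part.

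Members that lie within 500 kb of each other were grouped, and the normalized counts of 4 clusters, 2 on chromosome 5 and 2 on chromosome 11, are given as sums. The cluster of Cxcl5, Cxcl3, Cxcl15, Cxcl1 and Cxcl2 (chr5:90759298-90905938) summed to 261 and 302 normalized counts in the labelled Cry/Per/Nr1d_KO pair, 4009 and 4154 in the labelled Cry/Per_KO pair and 85291 and 86617 in Per/Nr1d_KO cells. For that of Ccl2, Ccl7, Ccl11, Ccl12, Ccl8 and Ccl1 (chr11:82035577-82179812) the sums were 4855 and 4677, 12522 and 13258, and 47088 and 45498. The Cxcl9, Cxcl10 and Cxcl11 cluster (chr5:92321331-92363296) gave 694 and 662, 766 and 664, and 13983 and 13016, with overlap between the labelled pairs. The Ccl5, Ccl9, Ccl6, Ccl3 and Ccl4 cluster (chr11:83525778-83664683) gave 234 and 191, 267 and 246, and 4735 and 4453. In each of these 4 clusters 1 or 2 members held most of the sum. The cluster of Ccl22, Cx3cl1 and Ccl17 on chromosome 8 was carried by Cx3cl1, that on chromosome 4 by Ccl27a alone, and Ccl24 and Ccl26 on chromosome 5 had no read.

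Between Per/Nr1d_KO and the labelled Cry/Per/Nr1d_KO pair, the medians of other genes near these clusters were closer to 0 than the members tested there. Within 1000 kb of the Cxcl5 to Cxcl2 cluster, 7 other genes were tested, leaving out Ppbp and Pf4, and their median log2 fold change was 0.35, with 1 called higher (Cox18, 1.48) and 0 lower. Near the Ccl2 cluster the median was 0.14 over 6 genes, with 1 called higher. Near Cxcl10 it was 0.25 over 18 genes, with 4 called higher and 2 lower. Near Ccl5 it was -0.02 over 21 genes, with 1 called higher and 1 lower (Slfn3, -6.62). These 21 genes include the 6 near the Ccl2 cluster, and the gene called higher is the same in both sets (Slfn9, 1.27). Btc and Parm1 were counted both near the Cxcl5 to Cxcl2 cluster and near Cxcl10, so that the sets are not separate. Of all genes tested, 20.7% were called in this comparison, 11.3% higher and 9.35% lower. The chromosome medians were 0.17 for chromosome 5 and 0.01 for chromosome 11. Between the labelled pairs the medians near these clusters were 0.41, -0.02, 0.13 and -0.23, the third of these farther from 0 than Cxcl10 itself.

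**Figure D4:**
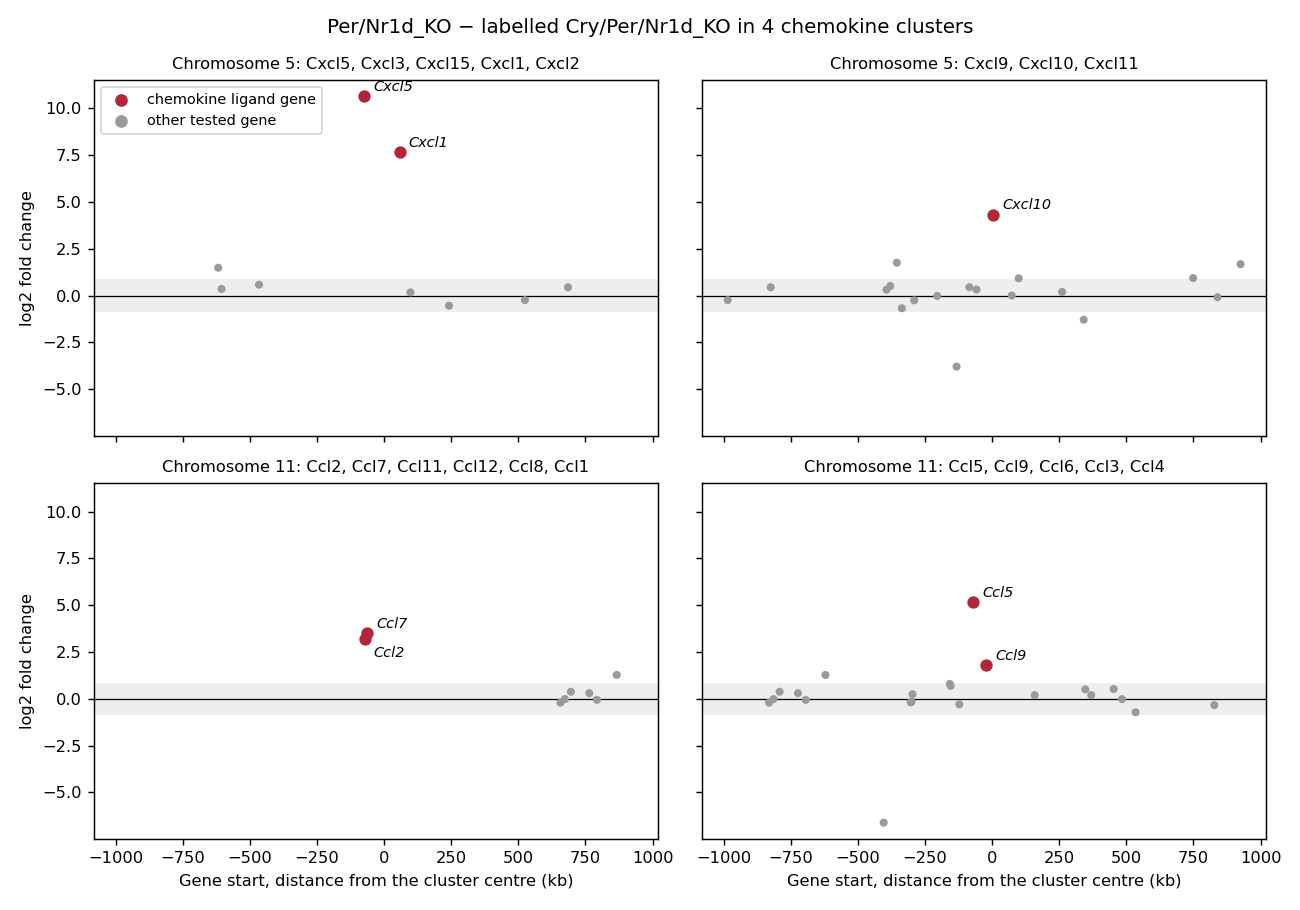
Log2 fold change between Per/Nr1d_KO and the labelled Cry/Per/Nr1d_KO pair against the distance of the gene start from the centre of 4 chemokine clusters (kb), with members of a mean of at least 100 in red, other tested genes in grey and a grey band for the limit of 0.81. The members lie between 1.78 (Ccl9) and 10.65 (Cxcl5), and most neighbours lie within the band.

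The receptors of these ligands were scarce. None of the 18 chemokine receptor genes had a mean of 100 normalized counts, and Ccr2, Ccr3, Ccr4, Ccr6 and Ccr8 had no read. Of the 4 with a mean of at least 10, Ccr10 was called higher and Cxcr4 lower in the labelled Cry/Per_KO pair than in the labelled Cry/Per/Nr1d_KO pair (1.05 and -2.15, edgeR, adjusted p = 0.00181 and 3.83e-05), where 22.4% of all genes were called. In Per/Nr1d_KO cells Cxcr4 and Cxcr6 were called higher and Ccr10 and Cxcr5 lower than in the labelled Cry/Per_KO pair, where 33.8% of all genes were. Cxcr4 was below a mean of 10 in 1 pair. Between Per/Nr1d_KO and the labelled Cry/Per/Nr1d_KO pair 0 of the 4 were called by edgeR, against 26.5% of all genes, where the adjusted p ran from 0.0756 to 0.45 and 0 had an unadjusted p under 0.05. Ackr3, the scavenging receptor of CXCL12, was more abundant, with 659 and 626 normalized counts in the labelled Cry/Per/Nr1d_KO pair, 342 and 395 in the labelled Cry/Per_KO pair and 2896 and 2657 in Per/Nr1d_KO cells. Per/Nr1d_KO was higher by 2.11 ± 0.077 and 2.91 ± 0.083 (edgeR, adjusted p = 1.16e-12 and 4.46e-14). The -0.80 ± 0.091 between the labelled pairs was inside the limit.

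Of 13 NF-kB subunits and feedback genes, all tested, 4 were called higher in the labelled Cry/Per_KO pair than in the labelled Cry/Per/Nr1d_KO pair (Nfkbia, Nfkbiz, Tnfaip3 and Bcl3) and 0 lower, with a median of 0.28, so that 30.8% of the list was called there against 16.8% of all genes. Nfkbia, Nfkbiz, Tnfaip3 and Bcl3 were also called higher in Per/Nr1d_KO than in the labelled Cry/Per/Nr1d_KO pair, with Nfkbie lower and a median of 0.27 (38.5% of the list against 20.7% of all genes). Against the labelled Cry/Per_KO pair, Nfkb1, Nfkbib and Tnfaip3 were higher and Nfkbie lower, with a median of 0.46, and the 30.8% called was near the 29.0% of all genes. Tnfaip3, which encodes the feedback inhibitor A20, had 886 and 957, 2789 and 2932, and 5642 and 5496 normalized counts. The subunit genes Rela, Relb, Rel and Nfkb2 were called in no comparison.

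Of 12 interferon response factors and targets, 11 had a mean of at least 100. In Per/Nr1d_KO, 10 of these were called higher than in the labelled Cry/Per/Nr1d_KO pair and 9 higher than in the labelled Cry/Per_KO pair, with medians of 5.30 and 4.94 and none lower (90.9% and 81.8% of those tested, against 20.7% and 29.0% of all genes). Rsad2 was below a mean of 100 in both labelled pairs and was tested only through its level in Per/Nr1d_KO, so that its calls were built in. Between the labelled pairs 1 was called higher (Irf7, 1.10) and 3 lower (Isg15, -1.03, Ifit1, -0.89, and Rsad2), with a median of 0.26, which is 36.4% of those tested against 16.8% of all genes. Oasl2, an interferon-induced antiviral gene, had 195 and 228, 254 and 249, and 25809 and 24082 normalized counts, with the labelled pairs far below Per/Nr1d_KO, as for Cxcl10. Both lists stand here beside the members, and no relation between them was tested.

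Markers of other cells also differed between the pairs. Of 13 leukocyte markers, Tyrobp, C1qa and Cd3e had no read, and Ptprc (CD45), expressed by all leukocytes, had at most 3.95 normalized counts. The sum of the list was 899 to 914, 1395 to 1506 and 1820 to 1861 normalized counts in the labelled Cry/Per/Nr1d_KO, labelled Cry/Per_KO and Per/Nr1d_KO pairs, of which Cd14 took 674 to 1524 and Cd68 109 to 276 over all libraries. Cd14 and Cd68, the markers of this list with a mean of at least 100, were both called higher in Per/Nr1d_KO than in the labelled Cry/Per/Nr1d_KO pair (1.13 ± 0.074 and 1.14 ± 0.13, edgeR, adjusted p = 1.64e-09 and 1.64e-06), and Cd68 also against the labelled Cry/Per_KO pair (0.81 ± 0.13, adjusted p = 3.42e-05). Of all genes, 20.7% and 29.0% were called there. Lyz2, tested from a mean of 10, had 25.7 and 22.2, 67.9 and 66.8, and 8.87 and 9.47 normalized counts. It was called lower in Per/Nr1d_KO than in both labelled pairs (-1.37 and -2.85, edgeR, adjusted p = 0.00334 and 1.08e-07). In that fit 2 of 5 such markers were higher and 1 lower than in the labelled Cry/Per/Nr1d_KO pair (26.5% of all genes called). Against the other pair 1 was higher and 1 lower (33.8%). The 6 endothelial markers summed to 214 to 226, 83.5 to 85.4 and 122 to 142, and moved in different directions. Normalized counts of Vwf were 95.0 and 88.8, 34.5 and 26.5, and 8.87 and 3.95, those of Kdr were 91.4 and 93.3, 18.9 and 23.6, and 64.6 and 82.8, and those of Tek were 11.5 and 5.55, 8.90 and 6.87, and 35.5 and 48.1. Cdh5 had at most 8.88, and Emcn had 1 read in 1 library. The 6 epithelial markers summed to 176 to 218, 26.5 to 41.2 and 131 to 134, with Esrp1 at 140 and 153, 12.2 and 8.84, and 0 and 0.789, Cdh1 at 7.99 and 27.8, 11.1 and 8.84, and 100.1 and 110.5, and Krt5, Krt14 and Cldn4 at most at 4.45. The part of these lists in the chemokine differences was not tested. Of the 7 fibroblast markers with a mean of at least 100, 4 were called higher and 3 lower in Per/Nr1d_KO than in the labelled Cry/Per/Nr1d_KO pair (20.7% of all genes called). Against the labelled Cry/Per_KO pair 3 were higher and 2 lower (29.0%), and between the labelled pairs 0 were higher and 1 lower (16.8%). In the first of these comparisons the higher genes were Col1a1, Col1a2, Fn1 and Col3a1 (836 and 801, 289 and 296, and 42810 and 43797), and the lower ones Vim, Pdgfrb and Pdgfra (12541 and 12743, 9870 and 9673, and 4140 and 4148).

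By the distance between log2 levels centred on their mean over the 6 libraries, the genes most like Cxcl5, the called member with the widest range, were Hp (haptoglobin, distance 1.84), Nmral1 (2.07) and Ch25h (cholesterol 25-hydroxylase, 2.18). Normalized counts of Hp were 0.888 and 5.55 in the labelled Cry/Per/Nr1d_KO pair, 10.0 and 9.82 in the labelled Cry/Per_KO pair and 2451 and 2432 in Per/Nr1d_KO cells. The genes most like Cxcl12 were Ints7 (0.038), Med10 (0.061) and Mff (0.062). With 6 libraries in 3 pairs, this likeness describes these libraries and no more.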

How the data were processed

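RNA-seq counts of 6 libraries, 2 independent RNA preparations from each of 3 MEF lines, were analysed. Libraries were prepared from poly-A RNA with a stranded TruSeq kit and sequenced as single-end reads of 50 bases. STAR was used by the authors for alignment to mm10 and featureCounts for read counts per gene. Whether the counting used strand, and how reads with several positions were treated, is not given in the sources used here. The deposited counts are whole numbers per Entrez Gene ID, not normalized, 1 file per library. The authors also deposited DESeq2 (1.22.2) tables of their own comparisons with fold changes and p-values, which were not used here.

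Libraries were grouped by the recorded genotype. Symbols and coordinates were taken from RefSeq (GRCm38.p6, the assembly of mm10), and 25275 of the 27179 IDs had a symbol. Exon lengths, overlaps on either strand and shared stretches of 50 bases came from GENCODE vM21, and promoters from RefSeq. Normalized counts are counts divided by TMM effective library sizes relative to their mean. Counts were fitted in R 4.3.3 with edgeR 4.0.16 (glmQLFit and glmQLFTest, limma 3.58.1), 3 groups in 1 fit without a replicate block, for the 11934 genes averaging 100 normalized counts or more, and again for the 14770 averaging 10 or more. P-values were adjusted over all genes of a fit by the Benjamini-Hochberg method. A call needed an adjusted p under 0.05 and a change of more than 75%, the study's limit. SE is the log2 fold change divided by the square root of its F value. In a group without reads, 3 counts per library were the limit for a bound on the fold.

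Totals of 53764390 to 85927236 counts left a common biological coefficient of variation of 0.0393. The libraries of each pair differed beyond sampling noise (chi-square per degree of freedom of 8.07 to 16.8) and were counted as separate. On data simulated for Per/Nr1d_KO against the labelled Cry/Per/Nr1d_KO pair, the fit recovered 195 of 200 changed genes among 11930 with 0 false calls, and 195 of 200 among 14778 with 5 false calls. The simulation gave every gene the same relative spread and used changes of 2-fold to 8-fold, all above the limit on the fold. It therefore does not measure false calls for genes of wider spread, or calls near the limit.

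All members with a mean of at least 10 are given with their values in every library, members below by ranges and those without reads by name. The lists were other chemokine ligands, receptors, atypical receptors, NF-kB genes, interferon response genes, fibroblast cytokines with Il1rl1, and markers of leukocytes, endothelium, epithelium and fibroblasts. Of the other ligands not named in the results, Xcl1 had no read and Cklf had 445 to 779 normalized counts. 1 gene of the receptor list is not reported by name here. Members and lists were chosen with earlier results of these data known. The alternatives were DESeq2 (1.42.0) at an adjusted p under 0.05 or under 1e-22 (the study's criterion), median-of-ratios size factors, other filters, no limit on the fold, glmTreat against that limit, the compared pairs alone, a replicate block, leaving out each library, and exchanged genotype labels.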

Additional observations from a re-analysis of the deposited data

How the results depend on the processing

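With 2 preparations of 1 line per group, no result separates a genotype from its line. The number of members called was 7, 10 and 10 in the 3 comparisons (labelled Cry/Per_KO against labelled Cry/Per/Nr1d_KO, then Per/Nr1d_KO against each in the order labelled Cry/Per/Nr1d_KO, labelled Cry/Per_KO). Leaving out each library gave 7, 10 and 9 to 10, and for all genes 1998 to 2042, 2451 to 2519 and 3434 to 3496. In the fit from a mean of 10 it gave 10 to 11, 14 to 15 and 12 to 13 members. Without a filter 13, 20 and 18 members and 3808, 4576 and 5590 genes were called. From a mean of 10, 11 members and 3311 genes were called in the first comparison and 3912 genes in the second. Without the limit on the fold 9118, 9042 and 9793 genes were called. DESeq2 at an adjusted p under 1e-22 called 1149, 1803 and 2592 genes and 5, 8 and 8 of the 12 members, and from a mean of 10 it called 1161, 1816 and 2596 genes and 5, 9 and 8 of the 17 members. The replicate block left 7, 10 and 10 members and 2002, 2468 and 3457 genes, and the paired fit changed no call of a member. Deviations of same-numbered libraries correlated at -0.19, -0.08 and -0.02, so that the numbers do not pair the libraries. A crossed pairing, added after seeing the data, called 7 members and 2004 genes in the first comparison. With exchanged genotype labels the first comparison became -5.04 for Ccl20, -2.93 for Cxcl5, -3.94 for Cxcl1, -0.075 for Cxcl10, -0.27 for Cxcl12, -0.046 for Ccl25, -0.29 for Cx3cl1, -1.217 for Cxcl16, -1.48 for Ccl2, -1.32 for Ccl7, -0.78 for Ccl5, 0.83 for Ccl9, -0.87 for Ccl27a, -2.84 for Cxcl3, -7.50 for Cxcl2, -2.37 for Cxcl17 and -1.30 for Ccl28. The sign also turned for Cxcl2 (-0.41 and 7.09) and Ccl28 (-0.49 and 0.81) in the comparisons of Per/Nr1d_KO with the pairs then labelled Cry/Per/Nr1d_KO and Cry/Per_KO. Cxcl10, not called between the labelled pairs, ran from -0.031 without the first labelled Cry/Per_KO library to 0.18 without the second. The cause of these changes was not tested beyond the number of genes or libraries each setting holds. Calls of members below a mean of 10 were made only in the fit without a filter and rest on few reads.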

Other observations

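Of 12 genes, those of cytokines known from fibroblasts and of the receptor Il1rl1, 5 had a mean of at least 100 normalized counts. Of these 5, 2 were called higher and 2 lower in Per/Nr1d_KO than in the labelled Cry/Per/Nr1d_KO pair (20.7% of all genes called). The counts were the same against the labelled Cry/Per_KO pair (29.0%). Between the labelled pairs 2 were higher and 0 lower (16.8%). Il6, a pro-inflammatory cytokine, had 36.4 and 23.3 normalized counts in the labelled Cry/Per/Nr1d_KO pair, 59.0 and 59.9 in the labelled Cry/Per_KO pair and 582 and 603 in Per/Nr1d_KO cells, and was called higher in all 3 comparisons (log2 fold change 4.27, 3.32 and 0.96 for Per/Nr1d_KO against each labelled pair and between these, edgeR, adjusted p at most 0.00155). It was below a mean of 100 in both labelled pairs and was tested through its level in Per/Nr1d_KO, so that this difference was built into the filter. Lif, a cytokine of the same receptor family, was also called higher in each, with 542 and 508, 1651 and 1542, and 3004 and 3040 normalized counts. Il1rl1, the receptor of IL-33, and Tslp, an epithelial and stromal alarmin, were called lower in Per/Nr1d_KO than in both labelled pairs. Il1rl1 had 102530 and 104694, 110155 and 110555, and 21776 and 21413 normalized counts, and Tslp had 297 and 341, 323 and 346, and 101 and 110. Csf1, the macrophage growth factor, was between 52911 and 92806 in all libraries and was called in no comparison. In the fit from a mean of 10, Il11 was lower and Il33 and Csf3 higher in Per/Nr1d_KO than in the labelled Cry/Per/Nr1d_KO pair. Their log2 fold changes were -1.19, 2.32 and 3.66 (edgeR, adjusted p at most 0.000385). Il33 and Csf3 were below a mean of 10 in both labelled pairs, so that this was built into the filter. Of 8 genes in that fit, 4 were higher and 3 lower there (26.5% of all genes called). Il1b had no read, and Tnf had 1 read in 1 library.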
